A study of Homo sapiens with 2 samples.

Results

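The Wnt pathway genes described here were 50 genes with known places in the pathway, from ligands to transcription factors, and DKK1 was among them because its high tag number was already known. They were located in the deposited clusters through their gene symbol. Of the 50 genes, 28 had at least 1 of the 233546 clusters, and together they held 887 clusters. The data came from HITS-CLIP, in which proteins are bonded to RNA by ultraviolet light, 1 protein is isolated with an antibody, and sequencing of the RNA fragments it retains gives the tags. The 2 libraries formed a single group. It consisted of MDA231-BrM2a cells, a brain metastatic subline of MDA-MB-231 breast cancer cells, in a population that was not cloned. In both libraries wild-type RBM47 with a Flag tag was expressed from an inducible promoter, with doxycycline given at 1 ng/ml over 3 days.

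Wnt proteins are secreted ligands that bind Frizzled receptors together with the coreceptors LRP5 and LRP6. Without a ligand, a destruction complex of APC, axin and the kinases GSK3 and casein kinase 1 marks beta-catenin for degradation. With a ligand, beta-catenin accumulates and acts with TCF/LEF factors on target genes. Secreted proteins of the dickkopf and SFRP families restrain the pathway at the cell surface, and DKK1 does so by binding LRP5 and LRP6. RBM47 is an RNA-binding protein, so the measurements concern the mRNAs of these genes and not the proteins.

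The table held 999047 tags of replicate 1 and 3489697 tags of replicate 2, so replicate 1 was measured less precisely. A cluster was in the table only with at least 1 tag in each replicate and 5 tags in total. Control libraries and mRNA levels were not analysed here, so how much of a tag number came from the abundance of the mRNA and how much from binding cannot be told apart. The same limit holds for a look at cell type markers. All 6 mesenchymal marker genes (VIM, CD44, CAV1, AXL, SPARC and PLAU) had more than 100 tags, against 14.9% of RefSeq protein-coding genes. Of 7 luminal or epithelial genes, EPCAM and ERBB3 had clusters, with 11 and 6 tags, while ESR1, PGR, GATA3, CDH1 and KRT19 had none. Of RefSeq protein-coding genes, 36.2% had a cluster. RBM47 itself, the introduced gene, had 1949 tags.

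To compare the inhibitors with the rest of the pathway, the genes were grouped by role. DKK1 was the only gene with a cluster among the 5 inhibitors at the cell surface. No cluster was listed for DKK3, a divergent dickkopf protein, for the dickkopf receptor KREMEN1, for SFRP1, which binds Wnt proteins, or for ZNRF3, a ubiquitin ligase that removes Frizzled receptors. The ligands were similar in number, as WNT5A had clusters but WNT5B, WNT7A, WNT7B and PORCN, the enzyme that attaches a lipid to Wnt proteins, did not. Among the 13 receptors, 12 had clusters, all except ROR2. The count was 10 of 15 for the cytoplasmic transducers, where the 3 dishevelled genes DVL1, DVL2 and DVL3 and the scaffolds AXIN1 and AXIN2 had no cluster. It was 4 of 12 for beta-catenin and the nuclear factors, where CTNNBIP1, TCF7L1, TCF7, LEF1, TLE3, TLE4, BCL9 and PYGO2 had none. Of all RefSeq protein-coding genes, 36.2% had a deposited cluster, against 28 of the 50 Wnt pathway genes (56%). The 50 genes were chosen with earlier results of these data known, so the higher share is not independent of that choice.

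**Figure D1:**
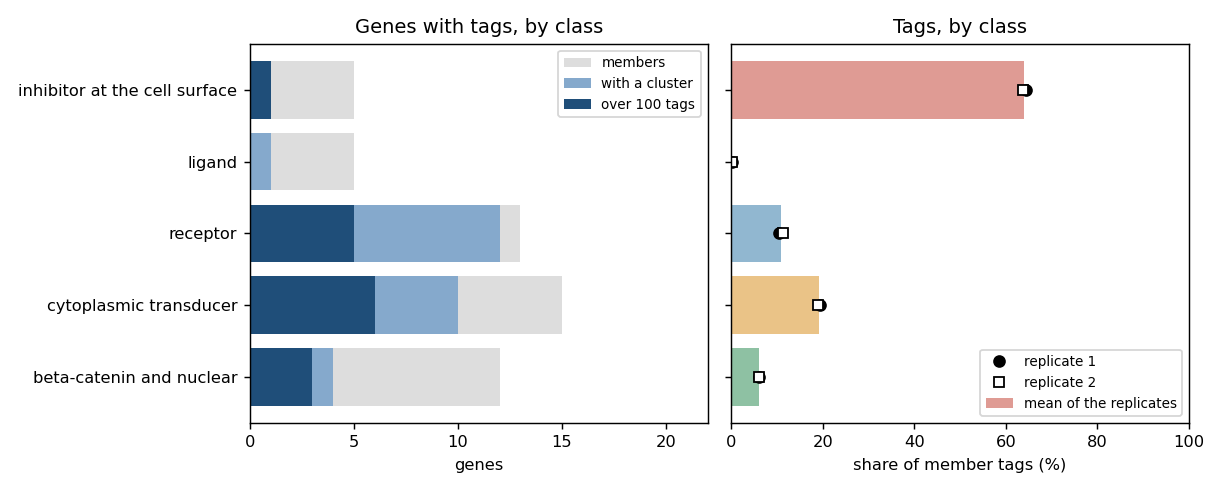
Wnt pathway genes and their tags by role. Left, nested bars give the number of genes, those with a cluster and those with over 100 tags; right, bars give the mean share of the tags of all 50 genes and symbols give each replicate (%, clusters of at least 10 tags). The inhibitor class holds 64.1% of the tags, from 1 gene.

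Tags were then summed per gene over clusters of at least 10 tags, a minimum that the study also applied. The sums are those of the deposited table and were not matched to the study's own sums per transcript. Such clusters were found in 20 of the 50 genes. They held 31793 tags in 401 clusters. The inhibitor class held 64.3% of these tags in replicate 1 and 63.8% in replicate 2 (mean 64.1% ± 0.393, SD, n = 2), all of them in DKK1. The cytoplasmic transducers held 19.1% ± 0.264, the receptors 10.7% ± 0.626, beta-catenin and the nuclear factors 5.99% ± 0.0363 and the ligands 0.0991% ± 0.00493 (SD, n = 2 for each). The differences between these classes were larger than the spread between the 2 libraries, which does not include the spread between genes. Without DKK1, the inhibitor class had no tags.

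More than 100 tags, the limit that the study set for its strongest partners, were found in 15 of the 50 genes (30%). In RefSeq protein-coding genes the share was 14.9%. Of the 28 with a cluster the 15 genes made up 53.6%, against 39.9% of all genes with a deposited cluster. These shares too depend on a choice of genes made with earlier results known. These 15 genes were 1 inhibitor, 5 receptors, 6 cytoplasmic transducers and 3 genes of the nuclear class. No ligand passed the limit. Each library was also taken alone, with only the clusters of at least 10 tags in that library, which is a harder filter. The limit was then passed by 6 genes in replicate 1, the library with fewer tags, and by 13 in replicate 2.

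DKK1 (Entrez gene 22943, plus strand of chromosome 10) had 4390 replicate 1 tags and 16009 replicate 2 tags. Scaled to 1000000 tags of each replicate, and called normalised tags from here on, these were 4394 and 4588 (mean 4491 ± 137, SD, n = 2). Levels were compared between genes per kb of cluster. DKK1 had 1657 normalised tags per kb in replicate 1 and 1730 in replicate 2 (mean 1693 ± 51.5, SD, n = 2). The next gene of the pathway was TNKS2, a tankyrase that marks axin for degradation, with 80.1 in replicate 1 and 89.6 in replicate 2 (mean 84.9 ± 6.69). The level of DKK1 was 19.95 times that of TNKS2, and the replicates of these genes did not overlap. Among the 3071 genes of the table with more than 100 tags, DKK1 ranked at 5 by tags per kb of cluster, and the next ranks in the pathway were 394 for TNKS2 and 738 for CSNK1A1.

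**Figure D2:**
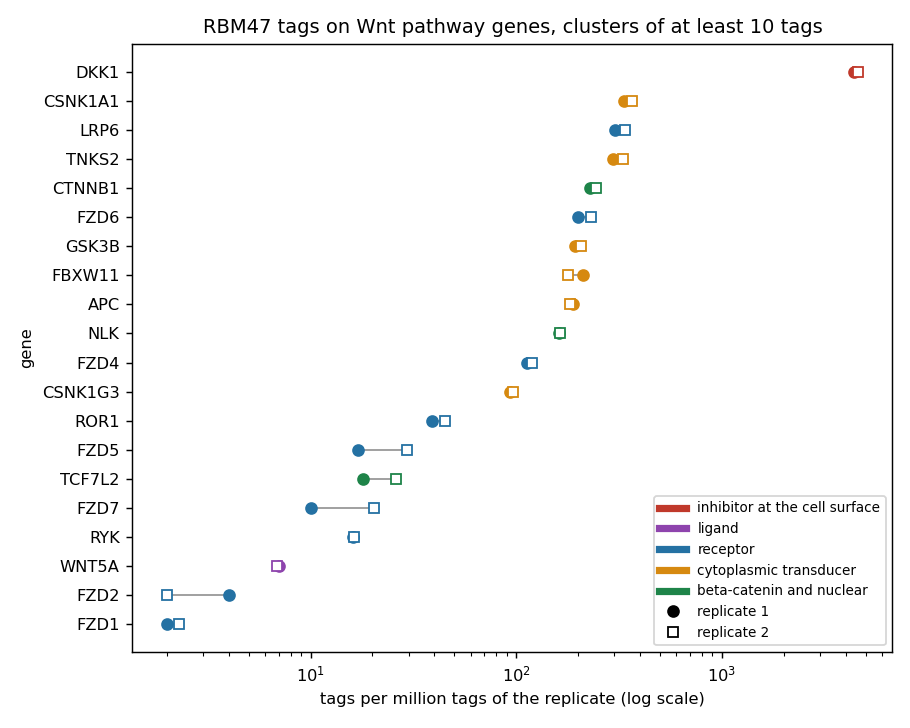
Tags per 1000000 tags of the replicate (log scale) for the 20 Wnt pathway genes with a cluster of at least 10 tags, coloured by role. Filled circles are replicate 1 and open squares replicate 2. DKK1 lies at 4394 and 4588, above every other gene, and the replicates lie farthest apart in genes with few tags such as FZD2 and FZD7.

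The tags of DKK1 were distributed over 5 clusters. The cluster at the 5' end, labelled as 5'UTR and coding sequence (CDS), held 583 tags (chr10:53744065-53744446). The CDS clusters held 68, 57 and 484 tags in 5' to 3' order. The remaining cluster, which reached from the CDS into the 3'UTR, held 19199 tags (chr10:53746313-53748251). Positions are on build hg18 as deposited, with no statement of the base at which counting starts. Per nt of cluster the last cluster held 9.91 tags and the other 4 together 1.67. The last cluster was 6.60 times denser in replicate 1 and 5.72 times denser in replicate 2.

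The last cluster was also longer than the annotated last exon. It measured 1938 nt, whereas the last exon of the GENCODE canonical transcript measures 1104 nt, with 251 nt of coding sequence and, after the stop codon, 850 nt of 3'UTR. Lengths were compared here, and no position was carried from 1 build to the other. The excess was 834 nt. The label names CDS and 3'UTR only, and how far the cluster reaches beyond either end of that exon was not determined.

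Further tags lay downstream of DKK1 on the same strand, in clusters that carry no gene name. Within 10 kb of the last DKK1 cluster there were 10 such clusters of at least 10 tags, with 3306 tags. Their sum was 705 normalised tags in replicate 1 and 750 in replicate 2 (mean 727 ± 31.8, SD, n = 2). They equalled 16.2% of the DKK1 tags. The first began 7 nt after the DKK1 cluster and the last ended 3824 nt after it. The largest held 1355 tags. The other genes of the pathway had 62 tags in such clusters in all, of which APC had 41, TNKS2 11 and CSNK1A1 10.

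**Figure D3:**
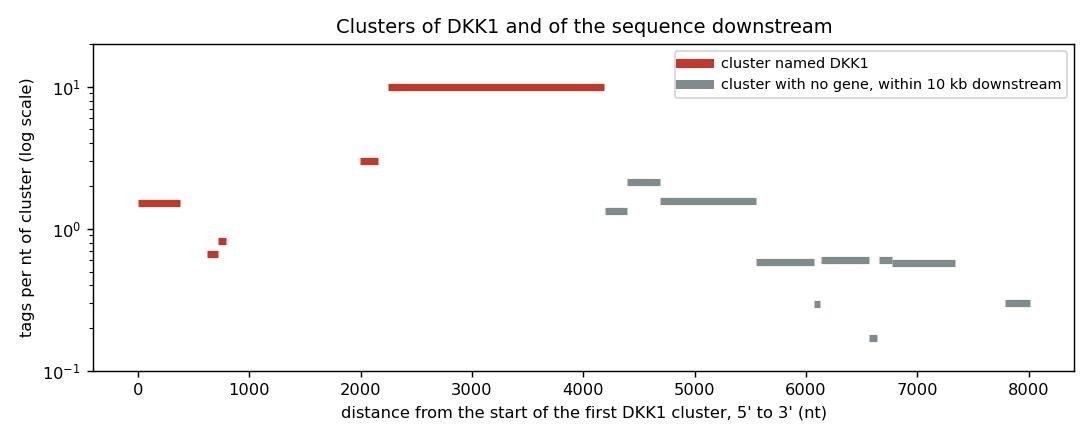
Tags per nt of each cluster (log scale, authors' total over both replicates) against the distance from the start of the first DKK1 cluster (nt). Red segments are the 5 clusters named DKK1 and grey segments the 10 clusters with no gene downstream; each spans the length of its cluster. The segment at 9.91 tags per nt is the cluster labelled CDS and 3'UTR.

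The sequences of the inhibitors' 3'UTRs were compared because DKK1 alone among them had clusters, and because most DKK1 tags lay in a cluster that includes the 3'UTR. For each, the stretch of 30 bases with the most U was read from the GENCODE canonical transcript on GRCh37 and is written with T. Capitals mark its longest run of U, or the first of equally long runs. No sequence is shown for SFRP1.
DKK1, chr10:54076844-54076873, plus strand: taTTTTTcctcttgttatgtaaatttttgt
DKK3, chr11:11984622-11984651, minus strand: ttctgtagttcttggatttcTTTTcccttt
KREMEN1, chr22:29538481-29538510, plus strand: attgaaTTTTTcttgcttctctatttttgt
ZNRF3, chr22:29451014-29451043, plus strand: tttttgtatatttttccagccTTTTTTatt
The stretch held 19 U in DKK1, 18 in DKK3, 19 in KREMEN1 and 20 in ZNRF3, so DKK1 did not stand out by this measure. A stretch with at least 19 U was found in 46.7% of 18710 annotated 3'UTRs, a share that depends on their length.

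Over the whole 3'UTR the genes differed more. U made up 35.3% of the DKK1 3'UTR, 29.1% of that of DKK3, 22.7% of that of KREMEN1, 29.1% of that of SFRP1 and 30.2% of that of ZNRF3. G and C together made up 31.3% in DKK1 and 43.4% to 55.2% in the other inhibitors. The same direction was seen across the pathway. The median U content was 33.4% in the 28 genes with a cluster and 27.7% in the 22 genes without, and the median GC content was 35.3% and 50.2%. The ranges overlapped, from 22.4% to 40.2% U with a cluster and from 20.04% to 37.5% without. GSK3A had a single cluster of 8 tags and 22.4% U, while TLE4 had 37.5% U and no cluster. Across the 28 genes, Spearman's rho of tags and U content was 0.638, with GC content it was -0.464, and with 3'UTR length 0.189. The genes with a cluster also had longer 3'UTRs, with a median of 2294.5 nt against 1583 nt in those without. These are descriptions across genes of the same 2 libraries and carry no test. The pattern was not particular to the pathway, as all genes with a cluster had a median of 32.5% U and those without 27.2%. Their median 3'UTR lengths were 1896.5 nt and 768 nt.

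**Figure D4:**
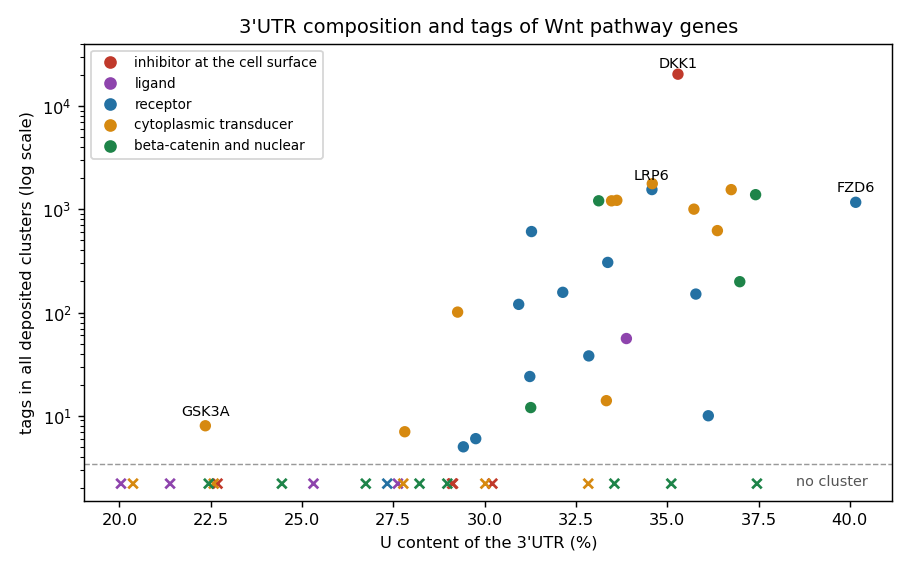
Tags of each Wnt pathway gene in all deposited clusters (log scale) against the U content of its 3'UTR (%), coloured by role. Circles are the 28 genes with a cluster, and crosses below the dashed line the 22 without. Most circles lie to the right of most crosses, with medians of 33.4% and 27.7%.

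The only ligand with clusters, WNT5A, a ligand known for signalling without beta-catenin, had 7 replicate 1 tags and 24 replicate 2 tags in its 2 clusters of at least 10 tags. Both were 3'UTR clusters. Its level was 30.6 ± 0.403 normalised tags per kb (SD, n = 2), among the lowest of the 20 genes.

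Among the receptors, LRP6, the coreceptor to which DKK1 binds, had the most tags. It had 302 tags in replicate 1 and 1184 in replicate 2, or 302 and 339 normalised tags (mean 321 ± 26.2, SD, n = 2). They were spread over 36 clusters, and the largest, a 3'UTR cluster at chr12:12164228-12164932 on the minus strand, held 203 tags or 13.8%. LRP5, the related coreceptor, had 1 cluster of 6 tags in its CDS.

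The Frizzled genes differed as widely. FZD6 had 200 replicate 1 tags and 806 replicate 2 tags, with 49.6% in 3'UTR, 25.2% in CDS and 12.4% in intron clusters, and its largest cluster was at chr8:104413293-104413629 on the plus strand. FZD4 had 113 and 415 tags in 25 clusters of at least 10 tags, all of them in the 3'UTR. FZD5 had 17 and 103 tags and FZD7 10 and 71, at this minimum also in 3'UTR clusters alone. Below it, CDS clusters were listed for FZD4 and FZD7, with 33 and 5 tags. FZD1 and FZD2 had 1 cluster each of at least 10 tags, with 10 and 11 tags. FZD3 and FZD8 reached 10 and 5 tags over all their clusters. Per kb of cluster FZD6 had 53.9 ± 5.44 normalised tags and FZD4 33.2 ± 1.18 (SD, n = 2), and their replicates did not overlap.

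Of the receptors outside the Frizzled family, ROR1 had 39 and 157 tags, and RYK had 16 and 57. Both are single-pass receptors with a kinase-like domain. For ROR1, 80.0% of the tags were in 3'UTR clusters.

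Of the cytoplasmic class, CSNK1A1 and TNKS2 had the most tags. CSNK1A1, the casein kinase 1 that primes beta-catenin for degradation, had 335 replicate 1 tags and 1272 replicate 2 tags (350 ± 20.6 normalised, SD, n = 2). Its largest cluster was in the 3'UTR at chr5:148854601-148855055 on the minus strand, with 262 tags. TNKS2 had 297 and 1160 tags (315 ± 24.8 normalised), of which 82.6% were in 3'UTR clusters. A single TNKS2 cluster of 1068 nt, at chr10:93613945-93615013 on the plus strand, held 635 tags or 43.7%. Its paralogue TNKS had 14 tags over all its clusters.

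GSK3B, the kinase that follows CSNK1A1 in the destruction complex, had 192 and 719 tags (199 ± 9.79 normalised). Of these, 81.8% were in clusters with more than 1 label, and the largest, at chr3:121025151-121025455 on the minus strand, was labelled as 3'UTR and intron. GSK3A, the other GSK3 gene, had 8 tags. FBXW11 and BTRC encode related F-box proteins that recognise phosphorylated beta-catenin. FBXW11 had 210 and 623 tags (194 ± 22.4 normalised), with 46.9% in 3'UTRs and 39.5% in introns, and its largest cluster, at chr5:171221479-171221696 on the minus strand, held 57 tags. BTRC had 101 tags in 17 clusters, none of which reached 10 tags.

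APC, the scaffold of the destruction complex, had 189 and 636 tags (186 ± 4.90 normalised). It was the gene with the largest CDS share among those over 100 tags, at 65.8%, and its largest cluster was in the CDS, with 73 tags at chr5:112205927-112206328 on the plus strand. CSNK1G3, a casein kinase 1 that acts on LRP6, had 93 and 337 tags, with 74.2% in 3'UTR clusters. CSNK1E had a single intron cluster of 7 tags.

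CTNNB1, which encodes beta-catenin, had 228 replicate 1 tags and 851 replicate 2 tags (236 ± 11.1 normalised, SD, n = 2). In its clusters, 46.2% of the tags were in 3'UTRs and 35.0% in introns. The largest was in the 3'UTR at chr3:41256487-41256712 on the plus strand, with 207 tags. NLK, a kinase that phosphorylates TCF/LEF factors, had 161 and 568 tags (162 ± 1.14 normalised), with 49.9% in 3'UTRs and 26.8% in introns, and its largest cluster held 74 tags at chr17:23545819-23546056 on the plus strand. TCF7L2 was the only one of the 4 TCF/LEF genes with clusters, and it had 18 and 91 tags. TLE1, a corepressor, had 12 tags over all its clusters.

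When the 20 genes were ordered by normalised tags per kb, the ranges of the replicates overlapped in 15 of 19 pairs of neighbours. Within each library, 10 of the 19 pairs kept the same order in both replicates. The ranges did not overlap between DKK1 and TNKS2, TNKS2 and CSNK1A1, CSNK1G3 and NLK, and RYK and FZD4. The range without DKK1 ran from 26.7 ± 10.1 in FZD5 to 84.9 ± 6.69 in TNKS2. The median of these 19 genes was 161 tags per kb of cluster by the authors' total, against 164 in the 5590 genes with such clusters. The pathway without DKK1 was thus near the middle of all genes by this measure. By tags per gene its median was higher, at 519 against 127, and by clusters per gene at 19 against 6.

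The location of the tags was compared with that in all genes. Without DKK1, 3'UTR clusters held 55.2% ± 0.225 of the tags of the pathway (SD, n = 2), against 47.1% ± 0.359 in all genes. CDS clusters held 15.8% ± 0.0720 against 10.1% ± 0.177, and introns 12.7% ± 0.146 against 18.9% ± 0.539. The SD covers the libraries only, as single genes ran from 0% in 3'UTR clusters in GSK3B to 100% in FZD4. When clusters were counted in place of tags, the 3'UTR share was 35.9% in the pathway without DKK1 and 35.1% in all genes, so that difference was seen in tags but hardly in clusters. The share of CDS clusters was 23.5% against 15.9%, and that of intron clusters 23.7% against 38.5%. DKK1 was left out because clusters with more than 1 label held 97.0% of its tags. GSK3B and TCF7L2 were kept, although such clusters held 81.8% and 69.4% of their tags. The 0% of GSK3B therefore counts clusters with a single label only. The classes varied around these values. Introns held 3.399% ± 0.381 of the tags in receptors, 11.8% ± 1.06 in cytoplasmic transducers and 32.2% ± 4.15 in beta-catenin and the nuclear factors. The last value came from 3 genes, with 35.0% in CTNNB1, 26.8% in NLK and 10.2% in TCF7L2 by the authors' total. FBXW11, a cytoplasmic transducer, had 39.5%. The 3'UTR share was 72.3% ± 0.732 in the receptors. In 4 of the 12 receptors with clusters (FZD1, FZD2, FZD7 and FZD8), the canonical transcript has a single exon and hence no intron. The authors' labels still place the FZD2 cluster of at least 10 tags in 3'UTR and intron. These genes held few of the receptor tags, with 81 in FZD7, 11 in FZD2, 10 in FZD1 and none in FZD8. All 9 receptor clusters labelled as intron alone were in FZD6, and LRP6, FZD4, ROR1 and FZD5 had none.

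**Figure D5:**
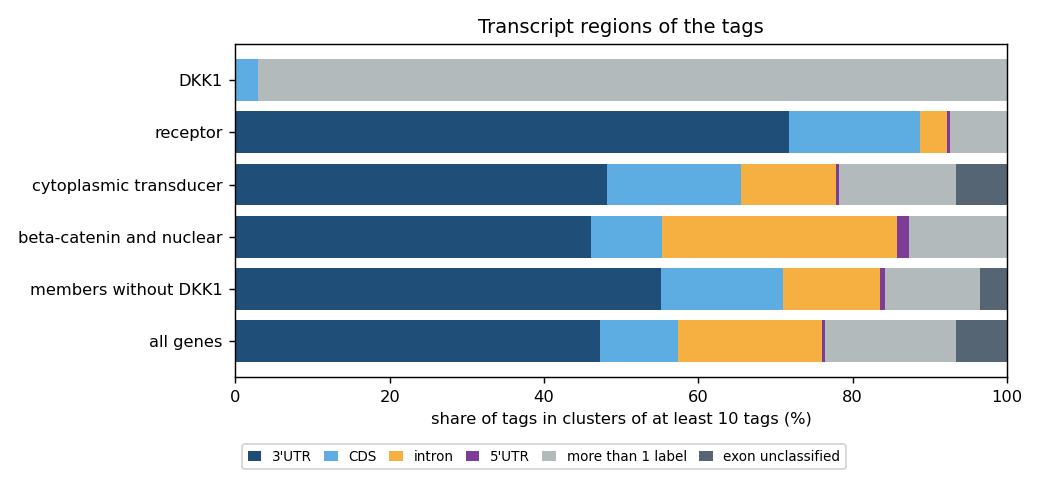
Share of tags (%, authors' total) by the location label of the cluster, for DKK1, the receptor, cytoplasmic and nuclear classes, all Wnt pathway genes without DKK1, and all genes. Clusters with more than 1 label form a class of their own. The intron share is 3.55% in receptors and 30.5% in beta-catenin and the nuclear factors, a class with 3 genes here.

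Within a gene, the 3'UTR and the CDS come from the same mRNA, so the tags per kb of annotated 3'UTR and CDS were set against each other, with all deposited clusters of a single label. Among the Wnt pathway genes with more than 100 tags, 11 had clusters of both kinds. The 3'UTR was denser in both replicates in 11 of 11, against 84.3% of the 2381 genes of the table with both kinds. The median ratio was 3.01 in the pathway and 3.58 in all such genes. CTNNB1 had the highest ratio, 13.03 in replicate 1 and 9.87 in replicate 2, followed by TNKS2 with 8.44 and 7.55. CSNK1A1 had the lowest, 1.47 and 1.36. In APC, the ratio was 1.71 and 1.91, although most of its tags were in the CDS, which measures 8529 nt against 2113 nt of 3'UTR.

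The replicates were finally compared at the level of clusters. Each cluster's split was tested against the replicate 1 share of 22.3% over all clusters. After Benjamini-Hochberg adjustment, none of the 887 Wnt pathway clusters passed the exact binomial test, against 0.0111% of all clusters. At an unadjusted p under 0.05 there were 26 of them (2.93%) by the exact test, against 3.04% of all clusters. By the beta-binomial test there were 6 of the 887, against 3299 of all 233546 clusters. The lowest p, 0.000271 before adjustment and 0.651 after it in the exact binomial test, belonged to the DKK1 cluster at the 5' end, with 94 replicate 1 tags and 489 replicate 2 tags. With a median of 2 replicate 1 tags per cluster, most differences were not detectable at this depth. Summed per gene, the replicate 1 share of DKK1 was 21.5% (Wilson 95% interval 20.96 to 22.1). The interval held the overall share in 16 of the 20 genes. It lay below it in DKK1, FZD5 and FZD7 and above it in FBXW11, and these intervals cover counting error only. In clusters of at least 100 tags the median replicate 1 share was 20.75%, and the DKK1 interval lay above that value. The direction for DKK1 thus depends on the reference. After scaling to the tags of each replicate, 16 of the 20 genes were higher in replicate 2 and 4 in replicate 1.

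The other genes of the pathway were taken from a wider list of 113 genes, also drawn up with earlier results of these data known. Of these, 52 had a cluster (46.0%, against 36.2% of RefSeq protein-coding genes) and 23 had more than 100 tags (20.4%, against 14.9%). The inhibitors and the ligands had the lowest shares of genes with a cluster. Of 15 further inhibitors only FRZB, a secreted Frizzled-related protein, had clusters, with 11 tags in clusters of at least 10 tags. Of 20 genes for ligands and their secretion 3 had clusters, of which WLS, the carrier of Wnt proteins to the cell surface, had 72 replicate 1 tags and 367 replicate 2 tags. The genes with the most tags per kb of cluster were RAC1 with 747 and RHOA with 640, small GTPases used by Wnt signalling without beta-catenin. They were followed by CD44 with 447, TBL1XR1, a nuclear cofactor of beta-catenin, with 436, and LGR4, a receptor for R-spondins, with 408. In each replicate RAC1 had 195 and 246 normalised tags, RHOA 185 and 199, CD44 1732 and 1927, TBL1XR1 512 and 583, and LGR4 300.3 and 332. DKK1, with 7689 tags per kb of cluster, was above all of them.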

How the data were processed

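HITS-CLIP was carried out in 2 libraries of a single group. The authors collapsed reads to unique tags with a degenerate barcode and deposited counts of tags per cluster, for each replicate and in total, with a location label. The submitters' processing notes name Novoalign and hg18. Column sums are not library depths, because only clusters with at least 1 tag per replicate and 5 in total were listed.

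Genes were matched by symbol, and all 50 were found in RefSeq. The members, classes and lists were chosen with earlier results of these data known. The main setting kept clusters of at least 10 tags and the authors' total. Replicate values were scaled to 1000000 tags of that replicate and are given as mean ± SD. Cluster length is end minus start. Clusters were tested with a two-sided exact binomial test (SciPy 1.17.1, Benjamini-Hochberg over 233546 clusters, threshold 0.05), which compares libraries and was tested on simulated data. 3'UTRs came from GENCODE canonical transcripts on GRCh37, matched by symbol, and no coordinates were converted. Genes described with values are all 50, and coordinates are given for the largest cluster of the 10 with the most tags. Of the wider list, the first 5 by tags per kb of cluster with more than 100 tags are named, and FRZB and WLS were named after their values were seen. The labels do not say whether the replicates came from separate cultures, so their spread may be technical.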

Additional observations from a re-analysis of the deposited data

Results flagged for a closer look

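The clusters with no gene name downstream of DKK1 lay outside the sums per gene, and drew attention because those of at least 10 tags held 3306 tags. The next gene was APC with 41, and 4 genes of the pathway had any such cluster. A control library was not analysed here. Only clusters on the strand of the gene were counted, so their strand was set by the selection.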

How the results depend on the processing

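Over 49 alternatives, 18 left a summary value within its limit, and 31 moved it. The limit was the SD between replicates, or 1.5 times for a count. The share of the inhibitors, which is that of DKK1, was 58.4% in all deposited clusters and 75.6% at 30 tags. The 3'UTR share was 19.3% and 17.7% under these settings, the intron share 10.2% and 1.01%, and DKK1 ranked at 4 with all clusters. With the sum of the replicate columns the intron share was 4.58%. By tags per kb of cluster the inhibitors held 67.8%, and without DKK1 0%. The 3'UTR share was 84.1% when every label was counted, 55.1% without DKK1 and 35.4% of clusters, and the intron share 7.20%, 12.7% and 23.4%. DKK1 ranked at 6 by tags and, in an alternative chosen after the data were seen, at 1 by tags outside introns per kb of transcript. With each replicate left out, where 10 tags in the remaining library is by construction a harder filter to pass, the tags ranged from 5569 to 24235, the genes over 100 tags from 6 to 13, the inhibitor share from 66.1% to 78.8%, the share of 3'UTR tags between 15.9% and 20.01%, that of introns between 0.628% and 3.16%, and DKK1 ranked at 4 in both. Replicate 2 alone gave 13 genes and replicate 1 alone 6. Of 100 values of the 20 single genes under the alternatives, 50 moved by more than 1.5 times, in 20 of 20 genes when replicate 2 was left out. Discordant clusters stayed at 0 under all 3 alternatives. No paired analysis was possible because the libraries form 1 group.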

Other observations

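The wider list also held 12 genes known as targets of Wnt signalling. Of these, 10 had clusters (83.3%, against 36.2% of RefSeq protein-coding genes) and 6 had more than 100 tags (50%, against 14.9%). VEGFA, which encodes an angiogenic factor, had 163 replicate 1 tags and 621 replicate 2 tags (171 ± 10.5 normalised, SD, n = 2). CCND1, which encodes cyclin D1, had 217 and 932 tags (242 ± 35.3 normalised), and the transcription factor gene MYC had 72 and 246 tags (71.3 ± 1.11 normalised). Per kb of cluster the order was VEGFA with 367, CCND1 with 351 and MYC with 286 tags, below CD44. These genes were named after their values were seen.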
